A study of Rattus norvegicus with 48 samples.

Results

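Collagens, laminins and integrins are the proteins by which kidney cells build and hold on to the matrix around them, and their genes were followed in rat kidneys over 10 days of indole-3-carbinol. Genes were taken where a probe set carried 1 symbol beginning with the collagen, laminin or integrin stem, and 1 further collagen gene is left out by the rule. This gave 20 genes, each with 1 probe set, of 7589 named genes and 8797 probe sets in the table. They comprised 9 collagen chains (Col1a2, Col2a1, Col3a1, Col4a4, Col5a3, Col11a2, Col16a1, Col23a1 and Col27a1), 2 laminin chains (Lama3 and Lamb2) and 7 integrin subunits (Itga1, Itga7, Itgad, Itgam, Itgb1, Itgb4 and Itgb6). The other 2 match by symbol only: Itgbl1 encodes a secreted protein that resembles integrin beta chains, and Itgb3bp encodes a centromere protein. Lamc1, Itgav, Itgb2 and Itga6 are partners of these chains, and Col4a1 and Col4a2 encode other collagen IV chains. None of them is analysed here.

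Total RNA came from kidneys of male rats, 12 weeks old in the sample labels, while the treatment protocol gives a range that starts at that age. There were 4 strains, named F, L, FL and LF, and the labels do not say what the letters stand for. Rats of each strain were gavaged daily with indole-3-carbinol (100 mg per kg of body weight) for 7 or 10 days, or with the vegetable oil carrier alone, here called day 0, with 8 rats per group. Each of the 12 groups had 4 arrays, described as biological replicates, without saying whether an array held 1 rat or a pool, so p-values measure the spread between arrays. Indole-3-carbinol comes from cabbage plants, and its acid products bind the aryl hydrocarbon receptor, a transcription factor that induces Cyp1a1. It is also used to switch on transgenes placed behind the Cyp1a1 promoter, and the labels do not say whether any of these strains carries one.

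Collagen I and III form the fibrils of the tissue between tubules, and collagen IV forms the net of basement membranes. Laminins are the other main polymer of basement membranes: laminin beta 2 belongs to the glomerular basement membrane, while laminin alpha 3 is part of the laminin on which epithelia anchor through integrin alpha 6 beta 4. Integrins are pairs of an alpha and a beta subunit that span the membrane, bind matrix outside and the cytoskeleton inside, and serve leukocytes as adhesion receptors. Kidney is mostly tubule, and all 11 measured markers of tubule cells lay above the median signal of the probe sets. In such bulk RNA, fewer cells of a type and less RNA per cell cannot be told apart.

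RefSeq promoter entries (rat build GRCr8) were matched for 14 of the 20 genes, and Col2a1, Col3a1, Itga7, Itgad, Itgb4 and Lamb2 had no match. The 200 bases before the gene start are shown for Itgam, the gene that passed the test over all strains. They are also shown for Itga1 and Itgb1, which encode the chains of 1 receptor. The stretches lie at chr1:192089392-192089591 (plus strand), chr2:48545284-48545483 (minus strand) and chr19:73602077-73602276 (plus strand). Capitals mark GAGGAA, the core bound by the myeloid factor PU.1, or GGGCGG, the letters bound by Sp1, on either strand.
Itgam: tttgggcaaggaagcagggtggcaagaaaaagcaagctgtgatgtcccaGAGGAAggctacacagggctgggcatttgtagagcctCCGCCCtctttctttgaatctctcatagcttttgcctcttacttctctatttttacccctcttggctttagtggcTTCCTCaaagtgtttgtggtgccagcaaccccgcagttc
Itga1: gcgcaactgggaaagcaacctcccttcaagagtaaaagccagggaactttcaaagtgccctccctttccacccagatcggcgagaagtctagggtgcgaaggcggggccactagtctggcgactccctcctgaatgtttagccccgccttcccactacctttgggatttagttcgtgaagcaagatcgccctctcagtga
Itgb1: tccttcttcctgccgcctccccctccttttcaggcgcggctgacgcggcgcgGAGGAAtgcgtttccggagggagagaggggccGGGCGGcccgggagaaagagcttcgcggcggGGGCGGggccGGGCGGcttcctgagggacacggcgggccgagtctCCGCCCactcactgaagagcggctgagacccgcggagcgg
The Itgam stretch held 2 matches to the PU.1 core, beginning 151 and 39 bases before the gene start, and 1 match to GGGCGG on the other strand. The Itgb1 stretch was the richest in G and C (73.5%, against 55.5% for Itga1 and 50.0% for Itgam) and held 4 matches to GGGCGG and 1 to GAGGAA. The Itga1 stretch held neither. Over the full windows of 300 bases, GAGGAA occurred in 8 of the 14 genes, against 27.6% of 33469 promoters in the reference. GGGCGG occurred in 8 of 14, against 33.1%. GCGTG, the core letters bound by the aryl hydrocarbon receptor, occurred in 6 of 14 (Col16a1, Col23a1, Col27a1, Col4a4, Col5a3 and Lama3), against 29.7%. TGAGTCA, bound by AP-1, occurred in Lama3 only, against 4.63%. Matches describe the letters, not bound sites.

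Matrix and integrin genes moved little. In the mean of the 4 strains, 0 of the 20 genes passed limma's test at day 7 (adjusted p below 0.05), where 4.94% of all probe sets did, and 4 of 20 had an unadjusted p below 0.05, beside 20.5% of all probe sets. At day 10, 1 of 20 passed, the integrin gene Itgam, where 2.41% of all probe sets passed and 1.26% were higher. The median change of the 20 genes was 0.0034 log2 at day 7 and 0.0025 at day 10, beside -0.029 and -0.0031 over all probe sets. Between day 7 and day 10 none of the 20 passed, where 0.114% of probe sets did, and 8 of 20 had an unadjusted p below 0.05, beside 13.6% of all probe sets, the smallest in Lama3 (0.17 ± 0.042, adjusted p = 0.109, limma). For all 20 genes the 95% interval of the change from day 0 lay within 0.3 log2 either way at both days. In the strain mean the treatment was visible elsewhere on the same arrays. Cyp1a1, the target of the aryl hydrocarbon receptor, was 1.74 ± 0.22 log2 (standard error) higher at day 10 over the 4 strains (adjusted p = 9.14e-07, limma), and Havcr1, a marker of injured tubule, was 2.87 ± 0.27 higher (adjusted p = 1.74e-09, limma). In LF, Havcr1 was 4.52 ± 0.54 higher at day 10 (adjusted p = 6.64e-07) while the difference in Cyp1a1 was 0.52 ± 0.43 (adjusted p = 0.999). Both passed in F at day 10. In FL, Cyp1a1 passed (adjusted p = 0.0415, limma) and Havcr1 did not (2.23 ± 0.54, adjusted p = 0.119). In L neither passed at day 10 (Cyp1a1 1.45 ± 0.43, Havcr1 1.67 ± 0.54, adjusted p = 0.694 and 0.964, limma).

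**Figure D1:**
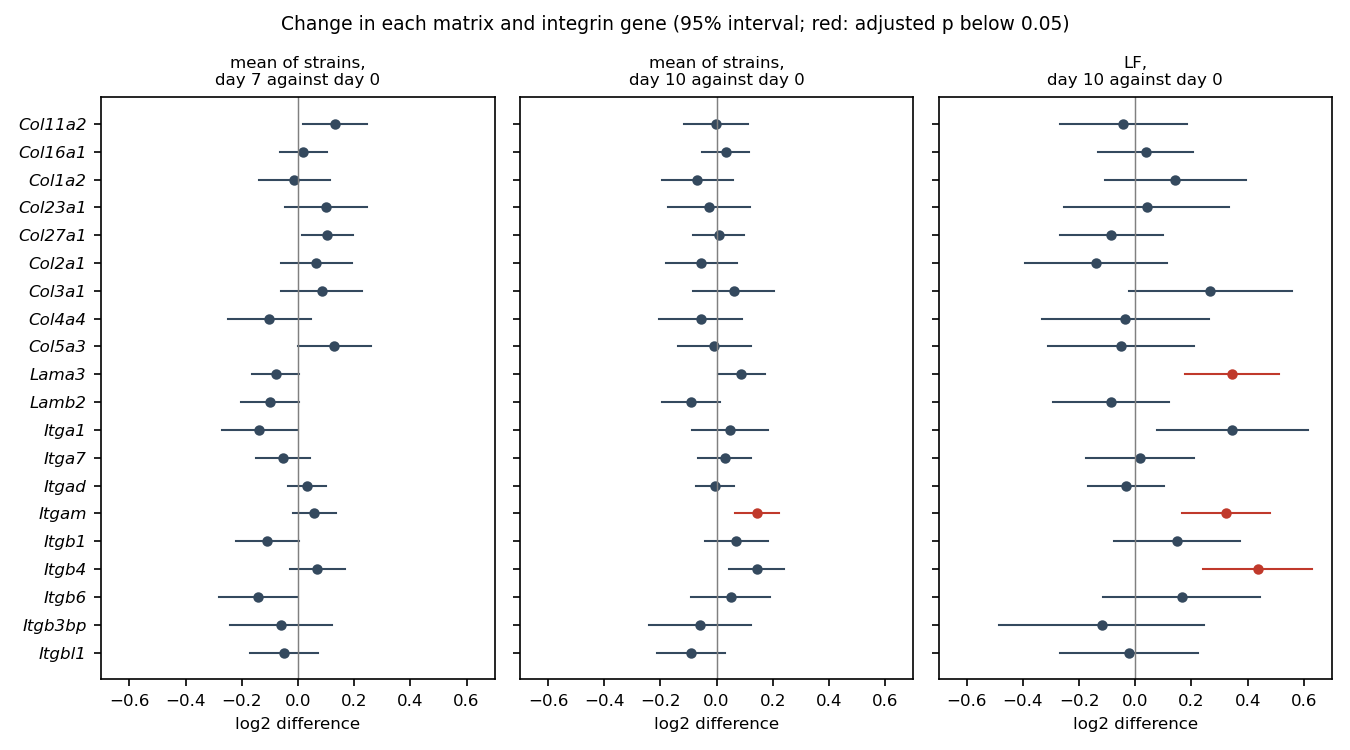
Log2 difference (horizontal axis) of each of the 20 genes at day 7 and day 10 in the mean of the 4 strains and at day 10 in LF, with 95% intervals from limma, genes on the vertical axis and red for an adjusted p below 0.05. Itgam is the red gene in the strain mean at day 10, at 0.14, and Itgam, Itgb4 and Lama3 are red in LF, at 0.32, 0.44 and 0.35.

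Among the collagens, 0 of 9 passed in any of the 17 comparisons between groups or in the test of strain by day. The fibril chains Col1a2 and Col3a1 did not pass in the strain mean at either day. Col1a2 over the 16 arrays of a day ran from 7.81 to 8.60 at day 0 (median 8.41), from 8.09 to 8.54 at day 7 (8.42) and from 7.86 to 8.61 at day 10 (8.35). Col3a1 ran from 6.91 to 7.75 (median 7.49), from 7.13 to 7.90 (7.52) and from 7.18 to 7.86 (7.45). The ranges of the 3 days overlapped for both genes. The changes at day 10 in the strain mean were -0.07 ± 0.062 for Col1a2 and 0.06 ± 0.071 for Col3a1 (adjusted p = 0.914 and 0.964, limma). By strain, the means moved both ways from carrier to day 10. Col1a2 ran lower in F (8.452 to 8.272), L (8.422 to 8.235) and FL (8.458 to 8.41) and higher in LF (8.15 to 8.292). Col3a1 ran lower in F (7.535 to 7.398) and higher in L (7.425 to 7.45), FL (7.525 to 7.615) and LF (7.19 to 7.458). These 2 genes, whose products share the fibrils of loose connective tissue, followed each other from array to array within groups: r was 0.80 over 48 arrays with group means removed (rho 0.81), 0.87 with array run removed as well, and 0.81 with the array spread removed. The pair was chosen after its values were seen, and the arrays share 1 normalization.

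The basement membrane chain Col4a4, which assembles with the alpha 3 and alpha 5 chains in the glomerulus, ran from 7.91 to 8.63 in carrier kidneys, from 7.70 to 8.65 at day 7 and from 7.78 to 8.83 at day 10. Its change at day 7 was -0.10 ± 0.073 (adjusted p = 0.443, limma). The minor fibril chains Col5a3 and Col11a2, the main cartilage collagen Col2a1 and the fibril chain Col27a1 had positive differences at day 7 of 0.13 ± 0.064, 0.13 ± 0.056, 0.07 ± 0.063 and 0.10 ± 0.045 (adjusted p = 0.245, 0.169, 0.581 and 0.177), and at day 10 all 4 lay within 0.06 of carrier. Col23a1, a transmembrane collagen, differed by 0.10 ± 0.073 at day 7 and -0.03 ± 0.073 at day 10. Col16a1, a collagen that associates with fibrils, differed by 0.02 ± 0.042 and 0.03 ± 0.042. Between FL and LF carrier kidneys Col1a2, Col3a1 and Col4a4 differed by 0.31 ± 0.12, 0.34 ± 0.14 and 0.29 ± 0.15 (adjusted p = 0.205, 0.239 and 0.351, limma). These passed with array medians subtracted (0.0449, 0.0304 and 0.0352), and within runs the differences spanned -0.17 to 0.77, -0.14 to 0.84 and 0.16 to 0.37. In the strain mean, the widest differences at day 10 among the 9 were those of Col1a2 and Col3a1 given above, and the widest 95% bound reached 0.206.

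Of the laminins, Lama3 passed in LF at day 10. A response different from that of the other strains was not shown, and the laminins were not tested against each other. Lamb2, the beta chain of the glomerular basement membrane, did not pass in any comparison: the arrays ran from 7.91 to 8.33 in carrier kidneys and from 7.67 to 8.28 at day 10, with a change of -0.09 ± 0.051 (adjusted p = 0.652, limma). Lama3, the alpha chain of the epithelial anchoring laminin, rose in LF. Its 4 LF carrier arrays read 3.92, 4.14, 3.98 and 4.05, and its 4 LF day 10 arrays read 4.64, 4.18, 4.22 and 4.43. The highest carrier array lay below the lowest day 10 array. The rise was 0.35 ± 0.083 log2, or 1.27-fold (adjusted p = 0.0242, limma). In the other strains the day 10 difference was -0.04 in F, -0.01 in L and 0.06 in FL (adjusted p = 0.907, 0.999 and 0.999).

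Lama3 was not alone in LF at day 10: 3 of 20 genes passed there, all higher, where 0.887% of all probe sets passed and 0.591% were higher. The median change of the 20 was 0.03 log2 against 0 over all probe sets. The second gene was Itgb4, the beta subunit of the receptor that binds the laminin containing Lama3 at hemidesmosomes. Its LF carrier arrays read 5.35, 5.73, 5.59 and 5.53, and its LF day 10 arrays read 6.18, 6.04, 5.75 and 5.97. The groups did not overlap, with 0.02 between the highest carrier and the lowest day 10 array. The rise was 0.44 ± 0.097, or 1.35-fold, with a 95% interval of 0.24 to 0.63 (adjusted p = 0.0108, limma). Differences in the other strains were 0.12 in F, -0.01 in L and 0.03 in FL (adjusted p = 0.734, 0.999 and 0.999). Within groups over 48 arrays Itgb4 and Lama3 had r = 0.45 (rho 0.36), a description of a pair chosen after its values were seen, on arrays that share 1 normalization.

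The third gene was Itgam, the alpha subunit of the complement receptor of macrophages, monocytes and granulocytes, also known as CD11b. Its LF carrier arrays read 3.92, 3.95, 3.86 and 3.90, and its LF day 10 arrays read 4.27, 4.09, 4.20 and 4.36. All 4 treated arrays lay above all 4 carrier arrays. The rise was 0.32 ± 0.077, or 1.25-fold (adjusted p = 0.0232, limma). The day 10 difference was 0.19 in L, 0.09 in FL and -0.02 in F (adjusted p = 0.999, 0.999 and 0.946). Averaged over the 4 strains, Itgam rose by 0.14 ± 0.038, or 1.105-fold (adjusted p = 0.0307, limma), with within-run differences of 0.0075 to 0.26. That call was lost without any 1 of F day 0 array 1 or 4, L day 0 array 4, FL day 0 array 3, LF day 0 array 3, L day 10 array 3 or 4, FL day 10 array 3 or LF day 10 array 4 (adjusted p up to 0.0740). Itgb4 differed by 0.14 ± 0.048 in the same comparison and missed the threshold (adjusted p = 0.138). Over the 16 arrays of a day Itgam ran from 3.75 to 4.10 at day 0 (median 3.90) and from 3.88 to 4.36 at day 10 (median 4.03), so the ranges overlapped between 3.88 and 4.10. Itgad, a related leukocyte alpha subunit, differed by -0.01 ± 0.034 at day 10 in that mean (adjusted p = 0.996). Its probe set, like that of Itgb3bp, lay in the dimmest 25% of all probe sets, where a change may not show.

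**Figure D2:**
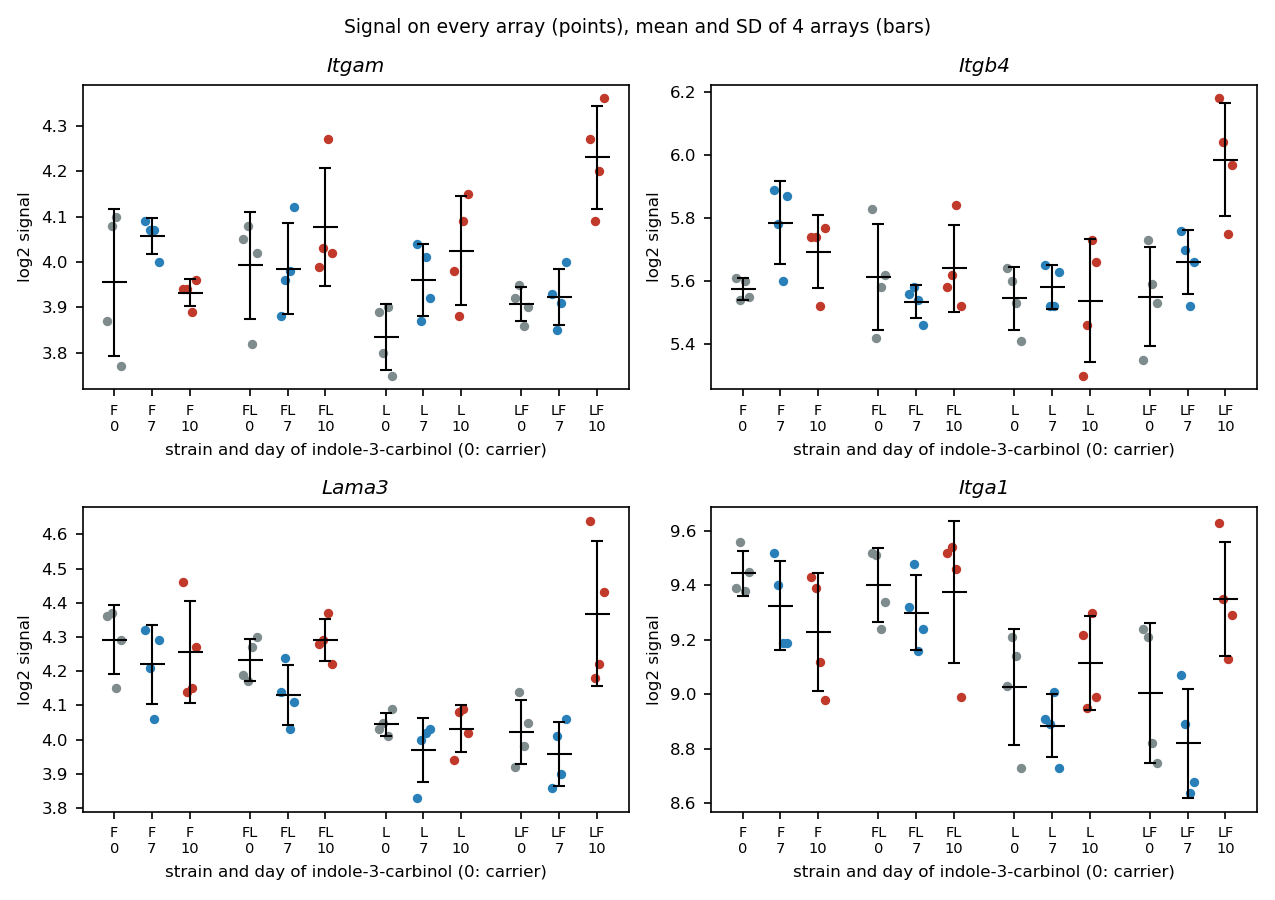
Log2 signal (vertical axis) of Itgam, Itgb4, Lama3 and Itga1 on each array, by strain and day (horizontal axis), with points for arrays and bars for the mean and SD of 4 arrays. For Itgam, Itgb4 and Lama3 the LF day 10 arrays stand above the LF carrier arrays without overlap, and Itga1 in carrier kidneys lies between 9.24 and 9.56 in F and FL and between 8.73 and 9.24 in L and LF.

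These rises are small, and single arrays decided the calls. The signals of Itgam and Lama3 lay below the array medians. That of Itgb4 lay near them, with a mean of 5.64 over all arrays beside array medians of 5.66 to 6.06. Each array belonged to 1 of 4 array runs, read from a code in the names of the scan files, and each run held 1 array of every group. Within the runs the LF day 10 difference was positive in 4 of 4 runs for each gene, from 0.14 to 0.46 for Itgam, 0.16 to 0.83 for Itgb4 and 0.04 to 0.72 for Lama3. Itgam and Lama3 each lost the call when LF carrier array 1, 3 or 4 or LF day 10 array 1 or 4 was left out, and Itgb4 when LF carrier array 1 or LF day 10 array 1 was. Lama3 also lost it with array medians subtracted (adjusted p = 0.0527). Whether the LF response differed from that of the other strains was not shown: in limma's F test of strain by day 0 of 20 genes passed, where 0.193% of probe sets did, and the adjusted p was 0.554 for Itgb4, 0.554 for Itgam and 0.646 for Lama3 (unadjusted 0.0112, 0.0112 and 0.0187).

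Other comparisons within a strain gave no gene past the threshold. The shares of all probe sets that passed were 0.671% in F at day 7, 0.239% in F at day 10, 0.0114% in L at either day, 0.159% in FL at day 7, 0.0909% in FL at day 10 and 2.26% in LF at day 7. At an unadjusted p below 0.05 there were 1 gene in F at each day (Itgb4, then Itgbl1), 1 in L at day 10 (Itgam) and 1 in LF at day 7, and 0 in L at day 7 and in FL at both days. Over all probe sets the shares at that cut-off were 6.92% and 9.36% in F, 4.3% in L at day 10 and 19% in LF at day 7, and 4.01%, 6.21% and 4.24% in the 3 comparisons with 0. The gene in F at day 10 was Itgbl1, with carrier arrays between 4.68 and 5.0 and day 10 arrays between 4.14 and 4.58, a difference of -0.40 ± 0.12 without overlap that missed the threshold (adjusted p = 0.196, limma). In LF at day 7 it was Itgb6, the beta subunit of the epithelial receptor that activates latent TGF-beta, at -0.31 ± 0.14 (adjusted p = 0.219).

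Itgam marks myeloid cells, and the markers of those cells were read beside it. Of 6 measured macrophage and monocyte markers, 0 passed at day 10, in LF or in the strain mean, and Adgre1 and Aif1 fell at day 7 in that mean (-0.39 ± 0.11 and -0.28 ± 0.064, adjusted p = 0.0249 and 0.00566, limma). Their averaged log2 signal ran from 6.51 to 6.90 over the LF carrier arrays and from 6.63 to 6.81 over the LF day 10 arrays. The 3 measured granulocyte and mast cell markers ran from 3.02 to 3.35 and from 2.91 to 3.27, and 0 of 3 lay above the median signal. Markers of fibroblasts, pericytes and smooth muscle were counted too: of 7 measured, 2 rose at day 7 and 4 at day 10 in the strain mean, among them Tagln, a smooth muscle protein (0.59 ± 0.075 at day 10, adjusted p = 1.13e-06, limma) and the proteoglycan Lum (0.68 ± 0.11, adjusted p = 5.51e-05). Col1a2 and Col3a1, products of the same kinds of cell, did not pass at either day. The averaged signal of the 7 markers in LF ran from 6.55 to 6.94 over carrier arrays and from 7.06 to 7.18 over day 10 arrays. Of the 7, 1 passed in LF at day 10, Tagln (0.84 ± 0.15, adjusted p = 0.000745, limma). Of the 11 tubule markers, 6 fell at day 7 and 3 at day 10, among them Calb1 (-0.84 ± 0.12 at day 10, adjusted p = 1.34e-05) and the water channel Aqp2 (-0.61 ± 0.082, adjusted p = 2.84e-06), and in LF at day 10 2 fell, Aqp2 and Slc5a2. Of 5 podocyte markers 1 fell at day 7 and 0 changed at day 10, and of 3 endothelial markers 2 fell at day 7 and 0 changed at day 10. Of 5 lymphocyte markers 1, Cd4, fell at both days, and of 2 platelet and red cell markers 0 changed. The part of any of these cell types in the rises of Itgam, Itgb4 and Lama3 was not tested.

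Carrier kidneys of the strains were compared pair by pair, and 0 of 20 genes passed in any of the 6 pairs. The share of all probe sets that passed was 1.55% for F against L, 0.0682% for FL against F, 0.193% for LF against L, 3.07% for FL against LF, 1.59% for FL against L and 2.11% for LF against F. At an unadjusted p below 0.05 there were 3, 0, 2, 4, 4 and 4 genes in the same order, drawn from Itga1, Lama3, Itgbl1, Itgam, Col1a2 and Col3a1, beside 8.18%, 4.17%, 4.82%, 15%, 10.2% and 9.94% of all probe sets. One gene stood at the edge. Itga1, the alpha subunit of a receptor for collagen IV and collagen I, read 9.39, 9.56, 9.38 and 9.45 in F and 9.52, 9.51, 9.24 and 9.34 in FL. It read 9.03, 9.21, 9.14 and 8.73 in L and 9.24, 9.21, 8.82 and 8.75 in LF. F stood above L and LF without overlap, and FL met LF at 9.24. The differences were 0.42 ± 0.13 for F against L, 0.38 ± 0.13 for FL against L, 0.40 ± 0.13 for FL against LF and -0.44 ± 0.13 for LF against F, with adjusted p of 0.139, 0.193, 0.0972 and 0.0737 (limma).

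With the array run as a block, which adds the run to the limma model, all 4 of these Itga1 differences passed, with adjusted p of 0.0120, 0.0278, 0.0111 and 0.00551, where 2.22%, 2.66%, 6.18% and 3.42% of all probe sets passed. Within the runs the difference had 1 sign in 4 of 4 runs in each pair: 0.24 to 0.72 for F against L, 0.10 to 0.61 for FL against L, 0.28 to 0.59 for FL against LF and -0.70 to -0.15 for LF against F. FL against F and LF against L differed by -0.04 ± 0.13 and -0.02 ± 0.13, with both signs among the runs. At day 7 the F and FL arrays again ran higher, from 9.16 to 9.52, than the L and LF arrays, from 8.64 to 9.07, an order read after the values were seen. At day 10 LF arrays read 9.63, 9.35, 9.13 and 9.29, which overlapped F (8.98 to 9.43) and FL (8.99 to 9.54). The L arrays of day 10, from 8.95 to 9.30, overlapped F and FL as well. The LF difference of day 10 from carrier was 0.35 ± 0.13 (adjusted p = 0.420), and it passed with array medians subtracted (0.0304), after a second quantile normalization (0.00446) and with the array spread as a covariate (0.0018).

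**Figure D3:**
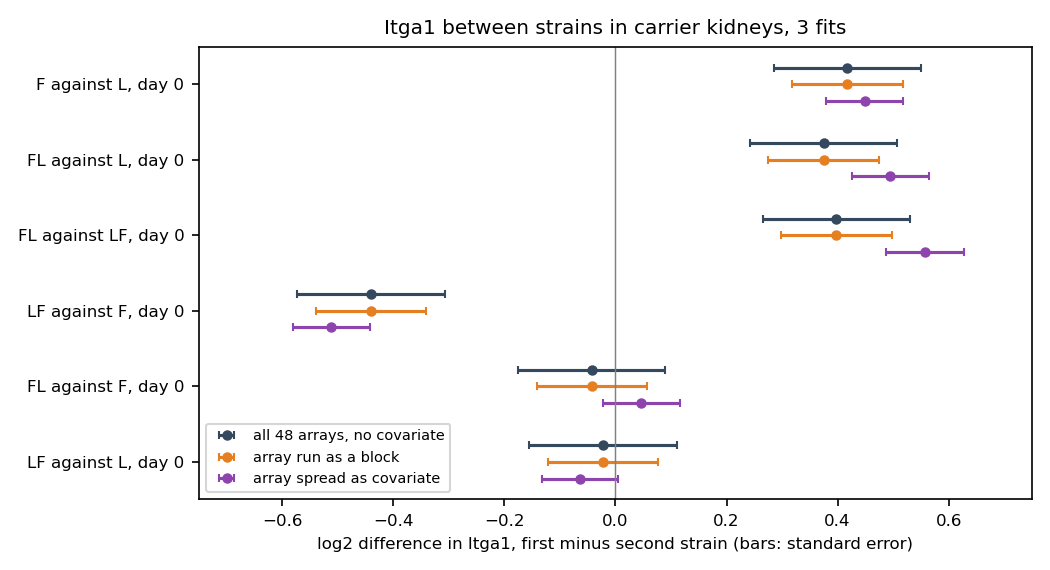
Log2 difference in Itga1 between strains in carrier kidneys (horizontal axis, bars for the standard error) for the 6 strain pairs (vertical axis) in 3 limma fits, without a covariate, with the array run as a block and with the array spread as a covariate. The F against L estimate is 0.42 without a covariate and 0.45 with the array spread, the FL against LF estimate moves from 0.40 to 0.56, FL against F from -0.04 to 0.05, and the bars are shortest with the spread.

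Lama3 had a like order in carrier kidneys. Its arrays read 4.15 to 4.37 in F and 4.17 to 4.30 in FL, and 4.01 to 4.09 in L and 3.92 to 4.14 in LF. The 8 arrays of F and FL lay above the 8 of L and LF. None of the pairs passed: the widest was LF against F at -0.27 ± 0.083 (adjusted p = 0.0847, limma), which passed with array medians subtracted (0.0437) and with the array spread as a covariate (0.0274). At day 10 the mean was 4.37 in LF, from 4.02 in LF carrier kidneys, beside 4.26 in F, 4.29 in FL and 4.03 in L. Itgbl1 had another order: its L carrier arrays ran from 4.39 to 4.48, below all F (4.68 to 5.0) and LF arrays (4.68 to 4.93), while FL arrays (4.41 to 5.06) overlapped those of L, and the difference of F from L was 0.40 ± 0.12 (adjusted p = 0.109, limma). For comparison, Ace, which encodes the angiotensin-converting enzyme and lies on the chromosome of Itgb4 and Col23a1 in GRCr8, was 1.60 ± 0.16 higher in F than in L (adjusted p = 1.83e-09, limma). Neither Itgb4 nor Col23a1 passed between strains.

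Itga1 and Itgb1 encode the chains of the collagen receptor alpha 1 beta 1, and of the partner pairs listed for this test theirs was the only one with both chains measured. The pair of Itga7 and Itgb1 was not on that list and was not tested. With group means removed, r was 0.862 and rho 0.869 over 48 arrays (permutation p = 1e-05 each, the smallest that 100000 permutations within groups can give), and r was 0.854 without the 2 arrays farthest from the median. It was 0.758 with the run means removed and 0.491 with the array spread removed (permutation p = 0.00133). Pairs among Col4a4, Itga1, Itgb1, Itgb3bp, Itgb6 and Lamb2 correlated at 0.59 to 0.86 with group means removed, and Itga1 with Itgb1 is the upper end of that range. No other pair of these genes was computed with the array spread removed. Whether the relation is particular to the chains of this receptor was therefore not tested. Itgb1, the common beta chain, did not pass in any comparison. Its day 10 difference averaged over strains was 0.07 ± 0.055 (adjusted p = 0.866, limma), with arrays from 9.57 to 10.10 at day 0 and from 9.43 to 10.13 at day 10. Itga7, the alpha subunit of a laminin receptor, differed by 0.03 ± 0.047 and ran from 6.33 to 6.89 in carrier kidneys and from 6.38 to 6.72 at day 10.

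Of the 20 genes, 11 followed a property of the arrays (r beyond 0.7). No share over all probe sets was computed beside it, so this was not shown to be particular to these genes. The array spread, the SD of log2 signal over all probe sets of an array, ran from 2.29 to 2.54 and averaged 2.48, 2.46, 2.43 and 2.38 in the 4 runs. With group means removed, 5 collagen genes fell as the spread rose, with r of -0.92 for Col5a3, -0.90 for Col11a2, -0.88 for Col2a1, -0.83 for Col23a1 and -0.74 for Col27a1. In 6 genes the signal rose with the spread, with r of 0.89 for Itgb6, 0.87 for Itga1, 0.84 for Itgb1, 0.83 for Lamb2, 0.81 for Itgb3bp and 0.75 for Col4a4. Spearman's rho was -0.92, -0.91, -0.88, -0.83 and -0.74 in the first set and 0.86, 0.88, 0.85, 0.80, 0.83 and 0.68 in the second. Each of the 11 had a permutation p of 1.82e-05 after adjustment over 20 relations, and with the run means removed the weakest was 0.518, for Col4a4, with no change of sign. The other 9 genes had r from -0.39 to 0.53, with 0.18 for Itgam, 0.34 for Itgb4 and 0.14 for Lama3. Within the set of 5, pairs of genes correlated at 0.60 to 0.92, within the set of 6 at 0.59 to 0.86, and across the sets at -0.88 to -0.34.

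**Figure D4:**
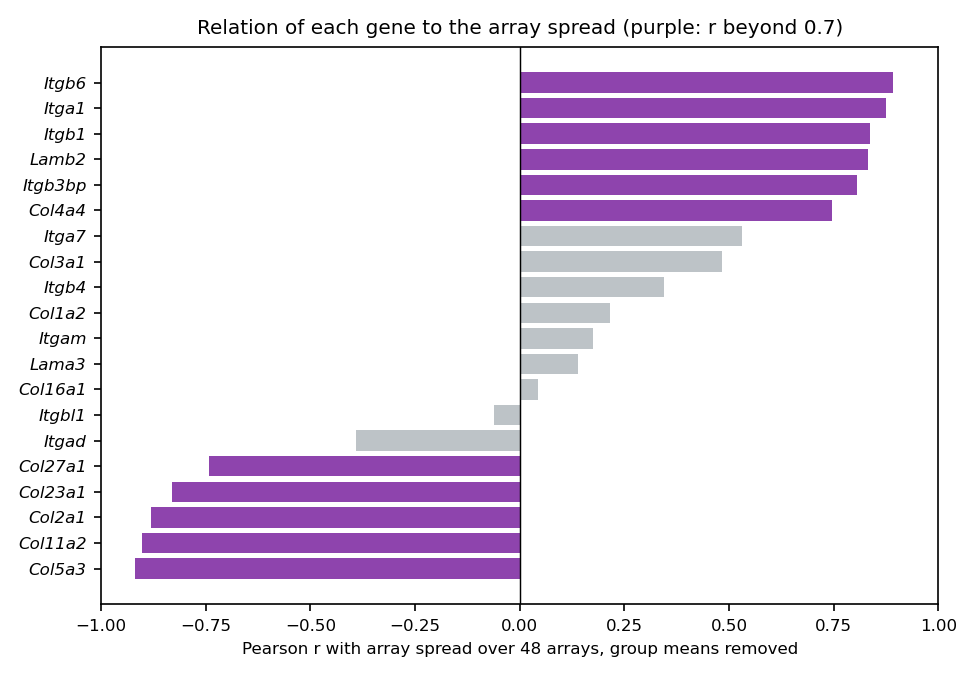
Pearson r of each of the 20 genes with the array spread over 48 arrays, group means removed (horizontal axis), genes on the vertical axis and purple bars for r beyond 0.7. There are 5 collagen genes at the negative end, down to -0.92, and 6 genes at the positive end, up to 0.89, while Itgam, Itgb4 and Lama3 lie at 0.18, 0.34 and 0.14.

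The 4 genes with an unadjusted p below 0.05 at day 7 in the strain mean all belonged to these sets, which hold 5 and 6 of the 20 genes. FL arrays at day 7 had spreads of 2.32 to 2.42, beside 2.36 to 2.48 for carrier, and LF arrays 2.33 to 2.46, beside 2.41 to 2.54. F arrays had 2.37 to 2.50, beside 2.44 to 2.47, and L arrays 2.39 to 2.48, beside 2.36 to 2.52. Col11a2 differed by 0.13 at day 7 and by 0.04 with the spread as a covariate, and Col27a1 by 0.10 and 0.05. Itga1 differed by -0.14 and -0.03, and Itgb6 by -0.14 and -0.03. The spread ran lower at day 7 in FL and LF, so treatment and spread cannot be told apart in these differences. The same limit holds between day 7 and day 10 for Col11a2, Col27a1, Col5a3, Itga1, Itgb1 and Itgb6, which were among the 8 genes there. In that comparison Itga1 differed by 0.19 and by 0.09 with the covariate, and Col5a3 by -0.14 and -0.04. The others of the 8 were Lama3, at 0.17 and 0.16, and Itgam, at 0.085 and 0.075. With the covariate the LF rises at day 10 were 0.44 for Itgb4, 0.35 for Lama3 and 0.32 for Itgam (adjusted p = 0.00233, 0.00737 and 0.00567, limma). LF carrier and LF day 10 arrays had like spreads, 2.41 to 2.54 and 2.43 to 2.52. The covariate could therefore move these differences little, and it does not test them.

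Genes that work on or with this matrix were read from 7 lists, chosen with earlier results of these data known. Of 11 measured genes of collagen processing, 1 rose and 2 fell at day 7 and 0 changed at day 10: Lox, which cross-links collagen, rose by 0.25 ± 0.058, and the enhancer of procollagen cleavage Pcolce and the cross-linker Tgm2 fell by 0.19 and 0.25 (adjusted p = 0.00717, 0.0166 and 0.0158, limma). The list's median was -0.09 log2 at day 7 against -0.029 over all probe sets. Of 11 measured basement membrane and glycoprotein partners, 1 rose (Eln, elastin) and 3 fell at day 7, and 2 fell at day 10, namely Fbln5, an organiser of elastic fibres (-0.37 ± 0.088, adjusted p = 0.0123) and Vtn, vitronectin (-0.23 ± 0.046, adjusted p = 0.00163). Of 6 small proteoglycans, Lum (also among the fibroblast markers above) rose at both days and Prelp fell at day 7.

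The list of matrix breakdown held rises at day 10. Of 19 measured genes, averaged over strains, 1 rose and 2 fell at day 7 and 2 rose and 1 fell at day 10. The protease inhibitor Timp1 rose by 0.83 ± 0.099 at day 10 and the secreted protease Adamts1 by 0.67 ± 0.12 (adjusted p = 5.40e-07 and 0.000209, limma), and Timp3, an inhibitor bound to matrix, fell by 0.18 ± 0.044 (adjusted p = 0.0127). In LF at day 10 the rises were 1.36 ± 0.20 for Timp1 and 1.23 ± 0.23 for Adamts1 (adjusted p = 3.15e-05 and 0.00141). Of 8 other matrix receptors 1 fell at day 7 (Sdc2) and 1 rose at day 10, Cd44, the hyaluronan receptor, by 0.53 ± 0.092 (adjusted p = 0.000256), and by 1.13 ± 0.18 in LF (adjusted p = 0.000196). Of 13 adaptors that link integrins to actin, 0 changed in the strain mean at either day, and in LF at day 10 1 rose, Actn1, by 0.54 ± 0.14 (adjusted p = 0.0358). Of 16 growth factor genes that act on matrix, 1 rose and 4 fell at day 7, and 3 fell at day 10, led by the BMP antagonist Grem1 (-0.75 ± 0.14, adjusted p = 0.000708) and Pdgfa (-0.26 ± 0.053, adjusted p = 0.00164).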

How the data were processed

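The values deposited by the authors were log2 signals, with RMA and limma listed by the submitters' processing notes, neither version nor role given. The chip annotation and probe set filter are not given in the sources used here. Values ran from 1.04 to 14.02 with 0 missing, and array medians from 5.66 to 6.06; the number of arrays limits the precision. Symbols came from the platform annotation (7603 probe sets with 1 symbol, 409 with several, 785 with none), and all 20 genes matched an Entrez identifier in the reference. Levels of different probe sets are not compared.

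With limma 3.58.1 in R 4.3.3, the 48 arrays were fitted together with a mean for every group (residual degrees of freedom 36, prior 3.69). It gave 17 two-sided contrasts and, for strain by day, 1 F test on 6 degrees of freedom, each adjusted over 8797 probe sets by Benjamini and Hochberg at 0.05. Errors are standard errors of that fit. Replicate numbers in the sample titles matched the array run read from the scan file names on every array. Each of 4 runs held 12 arrays, 1 of every group. Deviations from group means correlated at 0.0942 on average within runs (264 pairs, -0.268 to 0.579) and -0.0562 between runs (864 pairs, -0.626 to 0.466). Pairs of arrays from 1 group all lie between runs, and the deviations of a group sum to 0. That pulls the mean between runs down by construction, so this contrast alone does not test the pairing. Correlations used Python 3.11.15 with numpy 2.4.6. Alternatives were the run as a block, array medians subtracted, a second quantile normalization, the array spread as covariate, the 5 arrays of lowest spread left out, the dimmest 25% of probe sets left out, the mean over probe sets of a gene, and each array or run left out. Scripts were tested on simulated data.

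Named were genes past the threshold in the strain mean, up to 5 elsewhere, both partner chains, up to 4 genes per list, and Cyp1a1, Havcr1 and Ace. Remaining members, the pairs Col1a2 with Col3a1 and Itgb4 with Lama3, and members that missed the threshold are given as description, chosen after their values were seen. The members and lists were chosen with earlier results of these data known.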

Additional observations from a re-analysis of the deposited data

Results flagged for a closer look

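A single array stood far from the other 3 of its group in 12 of 240 sets of 4 arrays (20 genes in 12 groups), measured as the gap to the nearest array over the whole range, by Dixon's 95% criterion; chance gives about 1 in 20. Among collagens, Col1a2 was lowest on F day 0 array 2 (8.22, others 8.51 to 8.55) and on FL day 0 array 3 (8.15, others 8.53 to 8.58), and Col3a1 on LF day 0 array 1 (6.91, others 7.25 to 7.31). On FL day 10 array 4, the array with the lowest spread of all (2.29), Col2a1 was highest (6.28, others 5.77 to 5.85) and Itga1 lowest (8.99, others 9.46 to 9.54). Among leukocyte integrins, Itgam was highest on FL day 10 array 3 (4.27, others 3.99 to 4.03), and Itgad was highest on F day 0 array 1 (3.75, others 3.52 to 3.55) and lowest on LF day 0 array 2 (3.5, others 3.64 to 3.65). Among epithelial genes, Itgb4 was lowest on F day 10 array 3 (5.52, others 5.74 to 5.77), Itgb6 on L day 0 array 4 (8.32, others 8.65 to 8.69) and Lama3 on L day 7 array 1 (3.83, others 4.00 to 4.03). Itgb3bp was highest on F day 7 array 1 (3.22, others 2.48 to 2.58).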

How the results depend on the processing

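Counts of genes past the threshold are given for the 20 genes. For the strain mean at day 10, the array spread as covariate gave 2 (Itgb4 added, adjusted p = 0.0411), and leaving out an array or run gave 0 to 1: Itgam lost its call without run 1, 3 or 4, or without any 1 of the arrays listed with it above (adjusted p between 0.0504 and 0.0740 for the single arrays). For day 10 against day 7 the range was 0 to 1, with Lama3 called without FL day 10 array 4 (adjusted p = 0.0370) or LF day 10 array 2 (0.0427). For LF at day 10, leaving out an array or run gave 0 to 3: 0 without run 1, 2 or 4, LF day 0 array 1 or LF day 10 array 1, and 1 without run 3, LF day 0 array 3 or 4, or LF day 10 array 4. Itga1 was added in LF at day 10, for a count of 4, by a second quantile normalization and by the array spread as covariate, and with array medians subtracted it took the place of Lama3.

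Between strains at day 0, where 0 genes passed, the replicate block gave 1 gene (Itga1) in each of F against L, FL against LF, FL against L and LF against F. Array medians subtracted gave 1, 5, 1 and 2 genes in that order, a second quantile normalization 1, 4, 2 and 2, and the array spread as covariate 1, 3, 2 and 3. Leaving out the 5 arrays of lowest spread gave 1 for FL against LF and 1 for LF against F. Besides Itga1 these were Col4a4, Col3a1, Col1a2 and Lama3. The block changed no other call among the 20 genes; over all probe sets it raised the count from 435 to 976 at day 7 and from 199 to 722 in LF at day 7. With medians subtracted, higher and lower calls over all probe sets at day 7 were 256 and 310, against 105 and 330. No direction of a called gene reversed, the test of strain by day gave 0 under every alternative run, and the cause of the changes was not tested.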
